A study of Mus musculus with 8 samples.

Results

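The miR-106a-363 and miR-106b-25 clusters are the paralogs of the miR-17-92 cluster, and 7 of their mature miRNAs were followed here across sorted cells of the mouse thymus. The members were taken by name from the 1040 mouse probes of the deposited table: mmu-miR-106a, mmu-miR-18b, mmu-miR-20b and mmu-miR-363 (listed there as mmu-miR-363-3p) for the first cluster, and mmu-miR-106b, mmu-miR-93 and mmu-miR-25 for the second. All 7 were among the 309 mouse miRNAs tested, those well above background on 2 or more arrays, but miR-18b and miR-363 were too dim to be called. RNA came from CD45+ cells (3 arrays), cortical thymic epithelial cells (cTECs, 2 arrays) and medullary thymic epithelial cells (mTECs, 3 arrays), each sample labelled a biological replicate and sorted from the pooled thymi of 10 to 12 female NOD wildtype mice aged 4 weeks. The labels name no treatment and no engineered allele, and NOD is an inbred strain prone to autoimmune diabetes. Both epithelial gates took cells negative for CD45 and positive for EpCAM and MHC II, with Ly51 positive on cTECs and negative on mTECs, whereas CD45+ cells were EpCAM negative. The CD45+ sample is therefore a mixture of blood-lineage cells, in the thymus mostly developing T cells.

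A microRNA guides Argonaute to target mRNAs mainly through its seed, bases 2 to 8 of the mature strand, and lowers their stability and translation. The miR-17-92 cluster and its paralogs are cut from shared primary transcripts and are best known for favouring proliferation and survival, including in developing and activated lymphocytes, through targets such as Bcl2l11 and Cdkn1a. In RefSeq's annotation of GRCm38.p6 the miR-106a-363 cluster spanned chrX:52741693-52742567 on the minus strand, 875 bp with 6 miRNA genes and no host gene around it. The miR-106b-25 cluster spanned chr5:138165321-138165818 on the minus strand, 498 bp with 3 miRNA genes, inside Mcm7, which encodes a subunit of the replicative DNA helicase.

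The mature sequences are shown because they define which members can act on the same targets and which probes are hard to tell apart. They are RefSeq's, written 5′ to 3′ with the seed in capitals. miR-106a, miR-20b, miR-106b and miR-93 share the seed AAAGUGC with miR-17 and miR-20a of miR-17-92.
miR-106a: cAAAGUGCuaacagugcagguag
miR-20b: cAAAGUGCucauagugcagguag
miR-106b: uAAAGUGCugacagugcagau
miR-93: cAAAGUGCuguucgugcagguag
miR-17: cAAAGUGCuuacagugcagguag
miR-20a: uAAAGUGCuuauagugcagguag
The member miR-18b has the seed AAGGUGC, shared with miR-18a.
miR-18b: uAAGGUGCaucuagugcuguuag
miR-18a: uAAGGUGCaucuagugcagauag
miR-25 and miR-363 have the seed AUUGCAC, shared with miR-92a.
miR-25: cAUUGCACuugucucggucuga
miR-363: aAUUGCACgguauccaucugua
miR-92a: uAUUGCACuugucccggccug

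Counted from the 5′ end, miR-106a differed from miR-17 by 1 substitution (A10U), miR-20b from miR-20a by 2 (C1U and C10U) and miR-18b from miR-18a by 2 (U18A and U20A). miR-106b and miR-25 each differed from their nearest miR-17-92 paralog by 3 bases, miR-93 by 4 and miR-363 by 11, and none of these differences fell in the seed. The miR-106a-363 transcript also holds copies of miR-19b and miR-92a, but the deposited table places those probes at 2 genomic positions each, so that their signal cannot be assigned to a cluster. Every member's probe held the full complement of its miRNA. How far the probes separate paralogs that differ by 1 to 4 bases was not tested, and a member's signal may hold some of its paralog.

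The 8 arrays differed in brightness. Taken over the 65 mouse probes that all arrays measured well above background, the 75th percentile lay at 2910 for cTEC replicate 1 and 1364 for cTEC replicate 2, against 4213 to 11503 on the other arrays, and each array was divided by its own percentile. Between 169 and 325 mouse probes were well above background on CD45+ and mTEC arrays, and 122 and 98 on the cTEC arrays. For the fit, signals were raised to a floor of 621, the lowest signal well above background on cTEC replicate 2. A fold change against a group near that floor understates the difference.

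In the miR-106a-363 cluster, miR-106a and miR-20b were bright in CD45+ cells, and miR-18b and miR-363 were dim in every population. miR-106a, a member of the miR-17 seed family, had scaled signals of 2844, 3169 and 2895 in CD45+ cells, 413 and 428.9 in cTECs and 728, 764.5 and 882 in mTECs. miR-20b, of the same seed family, had 3688, 4245 and 3703 in CD45+ cells, 565 and 445 in cTECs and 803, 823 and 763 in mTECs. For both miRNAs the 3 populations did not overlap, with CD45+ cells highest and cTECs lowest, although on cTEC replicate 2 neither was well above background.

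The dim pair of that cluster was near the limit of the arrays. miR-18b had 129, 129 and 137 in CD45+ cells, 93.1 and 379 in cTECs, and 64.9, 113 and 115 in mTECs, and it was well above background on 2 CD45+ arrays and 1 mTEC array. miR-363 had 166, 244 and 171 in CD45+ cells, 100.4 and 264 in cTECs, and 41.4, 13.1 and 36.1 in mTECs, and it was well above background on the 3 CD45+ arrays alone. The cTEC values of both miRNAs overlapped those of CD45+ cells and were not well above background on either array. Against the mean log2 detection limit of the mTEC arrays, miR-363 was at least 1.68-fold higher in CD45+ cells. This bound has no test because every one of its values lay under the floor of the fit. It does not hold for mTEC replicate 2 alone, whose limit (223) exceeded the CD45+ mean (194). No bound could be given against cTECs, whose detection limits exceeded the CD45+ signal.

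All 3 members of the miR-106b-25 cluster were bright in CD45+ cells and intermediate in mTECs. miR-106b had scaled signals of 4473, 4977 and 4466 in CD45+ cells, 551 and 578 in cTECs, and 1474, 1472 and 1283 in mTECs. miR-93, which shares the seed of miR-106b, had 5168, 5328 and 4871 in CD45+ cells, 821 and 510.4 in cTECs, and 1884, 1593 and 1660.4 in mTECs. miR-25, which has the seed of miR-92a, had 3257, 3425 and 3086 in CD45+ cells, 596 and 297 in cTECs, and 822, 734 and 819 in mTECs. The order of CD45+ cells, mTECs and cTECs held on every array for these 3 miRNAs, and again none was well above background on cTEC replicate 2. Over 4 to 5 kept spots per probe, the median coefficient of variation of the members was 6.82% where they were well above background.

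**Figure D1:**
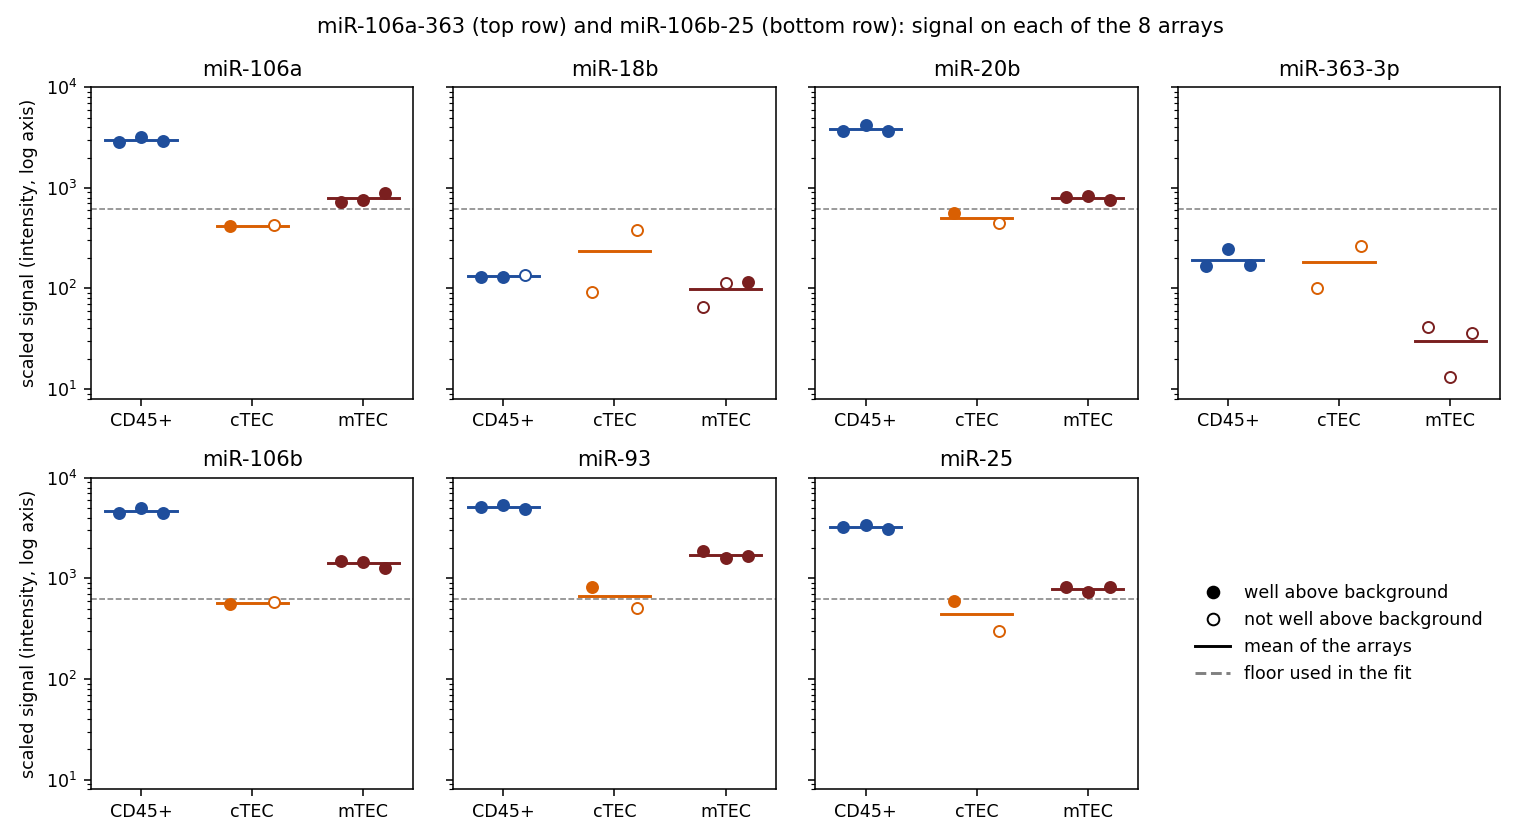
Scaled signal (intensity, log axis) of the 7 members on each array by cell population, with filled points well above background, open points not, bars at the group means and the floor of 621 as a dashed line. The 5 bright members lie between 2844 and 5328 on CD45+ arrays and between 728 and 1884 on mTEC arrays, and miR-18b and miR-363 lie under the floor throughout.

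The first comparison asked how mTECs differ from the hematopoietic reference. In mTECs 5 of the 7 members were lower, against 46 of the 309 tested miRNAs called lower (14.9%) and 28 called higher. The background depended on the processing, with 92 lower and 18 higher for the percentile over all mouse probes. Its balance turned with normexp background correction (51 lower, 67 higher) and with the lowest floor (64 lower, 76 higher). Mean signal in mTECs was 26.6% of that in CD45+ cells for miR-106a, 20.5% for miR-20b, 30.4% for miR-106b, 33.4% for miR-93 and 24.3% for miR-25. In the limma fit to all arrays, miR-20b fell by 2.28 on the log2 scale (SE 0.0637, Benjamini-Hochberg adjusted p = 3.65e-06). miR-25 fell by 2.04 (SE 0.0587, adjusted p = 3.65e-06) and miR-106a fell by 1.91 (SE 0.0802, adjusted p = 1.53e-05). miR-106b fell by 1.72 (SE 0.0725, adjusted p = 1.53e-05) and miR-93 fell by 1.58 (SE 0.109, adjusted p = 9.74e-05). These SEs rest partly on the floor. With the lowest floor they ran from 0.194 (miR-106b) to 0.312 (miR-25), and all 5 stayed lower (limma adjusted p of 1.05e-04 to 0.00103). The median difference over the 7 members was -1.72, beside 0 over all tested miRNAs, of which 83 lay at the floor on every array. Over the 65 miRNAs measured on all arrays it was 0.024. miR-18b and miR-363 were at the floor on every array and could not be called. With quantile normalization miR-93 kept its direction (-1.42) and lost its call (adjusted p = 0.132), against an adjusted p of 5.47e-05 to 0.132 over its 20 alternatives.

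These are bulk RNA samples, so fewer cells that express a miRNA and less of it per cell cannot be told apart. The comparisons of mTECs and of cTECs with CD45+ cells also share the same 3 CD45+ arrays.

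The second comparison set cTECs against CD45+ cells. The same 5 members were called lower in cTECs, against 62 of 309 tested miRNAs (20.1%) and 33 called higher. Other scalings gave 114 lower and 6 higher (percentile over all mouse probes) or 111 lower and 2 higher (no normalization), and leaving out cTEC replicate 1 gave 59 lower and 109 higher. On cTEC replicate 1, where these members were well above background, signal was 13.9% of the CD45+ mean for miR-106a, 14.6% for miR-20b, 11.9% for miR-106b, 16.0% for miR-93 and 18.3% for miR-25. That is a range from 5.46-fold (miR-25) to 8.43-fold (miR-106b) below the CD45+ mean, with 1 measured array and no spread of its own. In the fit, which holds both cTEC arrays near the floor, miR-106b fell by 2.85 (SE 0.0810) and miR-20b fell by 2.62 (SE 0.0712) on the log2 scale, with limma adjusted p = 4.38e-06 for each. miR-93 fell by 2.82 (SE 0.122, adjusted p = 1.35e-05). miR-25 fell by 2.36 (SE 0.0656, adjusted p = 4.38e-06) and miR-106a fell by 2.25 (SE 0.0897, adjusted p = 1.09e-05). The floor removed most of the spread between the cTEC arrays, so these SEs and p-values do not measure it. For miR-25, cTEC signals of 596 and 297 entered the fit at log2 9.33 and 9.28. The members' median was -2.36, beside 0 over all tested miRNAs and 0.47 over the 65 measured on all arrays. All 5 stayed lower when either cTEC array was left out. Such fits take the spread of the lone cTEC array from the other groups. None of the 5 was well above background on cTEC replicate 2, so the fit with that array alone sets CD45+ cells against values at or near the floor.

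**Figure D2:**
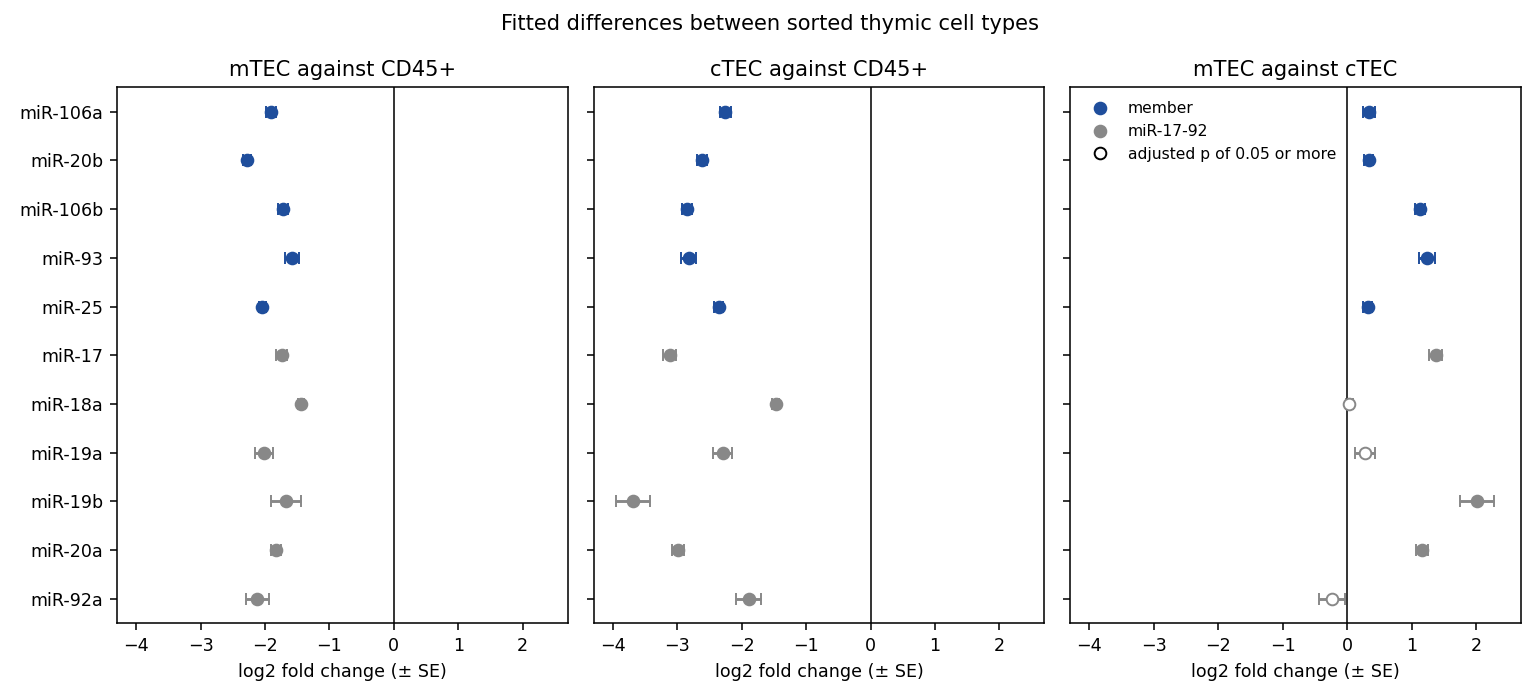
Log2 fold changes with their standard errors from the limma fit in the 3 comparisons, for the 5 members above the floor (blue) and the 6 miRNAs of miR-17-92 (grey), with open points where the adjusted p was 0.05 or more. All 11 lie below 0 against CD45+ cells, and the 5 members lie between 0.32 and 1.24 in mTECs against cTECs.

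The third comparison, of mTECs with cTECs, gave fitted differences whose sizes depended on the floor. miR-93 was higher in mTECs by 1.24 on the log2 scale (SE 0.122, limma adjusted p = 7.12e-04) and miR-106b by 1.13 (SE 0.0810, adjusted p = 1.99e-04). The other bright members were higher by smaller amounts: miR-106a by 0.34 (SE 0.0897, adjusted p = 0.0416), miR-20b by 0.34 (SE 0.0712, adjusted p = 0.0181) and miR-25 by 0.32 (SE 0.0656, adjusted p = 0.0169). Thus 5 of 7 members passed, against 50 of 309 tested miRNAs called higher (16.2%) and 20 lower. The median was 0.34 for the members, 0 for all tested miRNAs and -0.25 for the 65 measured on all arrays. Mean signals of miR-106a, miR-20b, miR-106b and miR-25 lay under the floor on both cTEC arrays, so these sizes and their SEs are set partly by the floor. The split over all miRNAs was 38 higher and 1 lower with the percentile over all mouse probes and 41 each way with quantile normalization, and without cTEC replicate 1 it turned to 48 higher and 99 lower. Against cTEC replicate 1 without a floor, mTEC signal was 2.56-fold higher for miR-106b, 2.09-fold for miR-93 and 1.92-fold for miR-106a. It was 1.41-fold higher for miR-20b and 1.33-fold for miR-25. There miR-106a lay near miR-93, so no grouping of the members by size was read.

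The sizes and calls in this comparison depended on the processing. Over the alternatives the log2 difference ran from 0.23 to 2.06 for miR-106a, 0.079 to 1.94 for miR-20b and 0.071 to 1.89 for miR-25. For miR-106b it ran from 0.53 to 2.78 and for miR-93 from 0.63 to 2.77, each member being highest without normalization. Over 20 alternatives all 5 members stayed higher in mTECs, but miR-106a and miR-20b kept an adjusted p under 0.05 in 10 each and miR-25 in 11, against 19 for miR-106b and 18 for miR-93. Without cTEC replicate 2, in a fit that takes its spread from the other groups alone, 3 members were called, miR-20b (adjusted p = 0.152) and miR-25 (adjusted p = 0.0793) being lost (0.00457 to 0.749 and 0.0106 to 0.756 over all alternatives). With the row of the slide as a block 4 were called, miR-106a being lost (adjusted p = 0.0740, in a range of 7.73e-04 to 0.376). Without CD45+ replicate 3, which takes part in the scaling and the spread, 2 were called, miR-106b and miR-93. With the percentile over all mouse probes 1 was called and with quantile normalization 0, although the members' medians were 1.19 and 0.77.

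**Figure D3:**
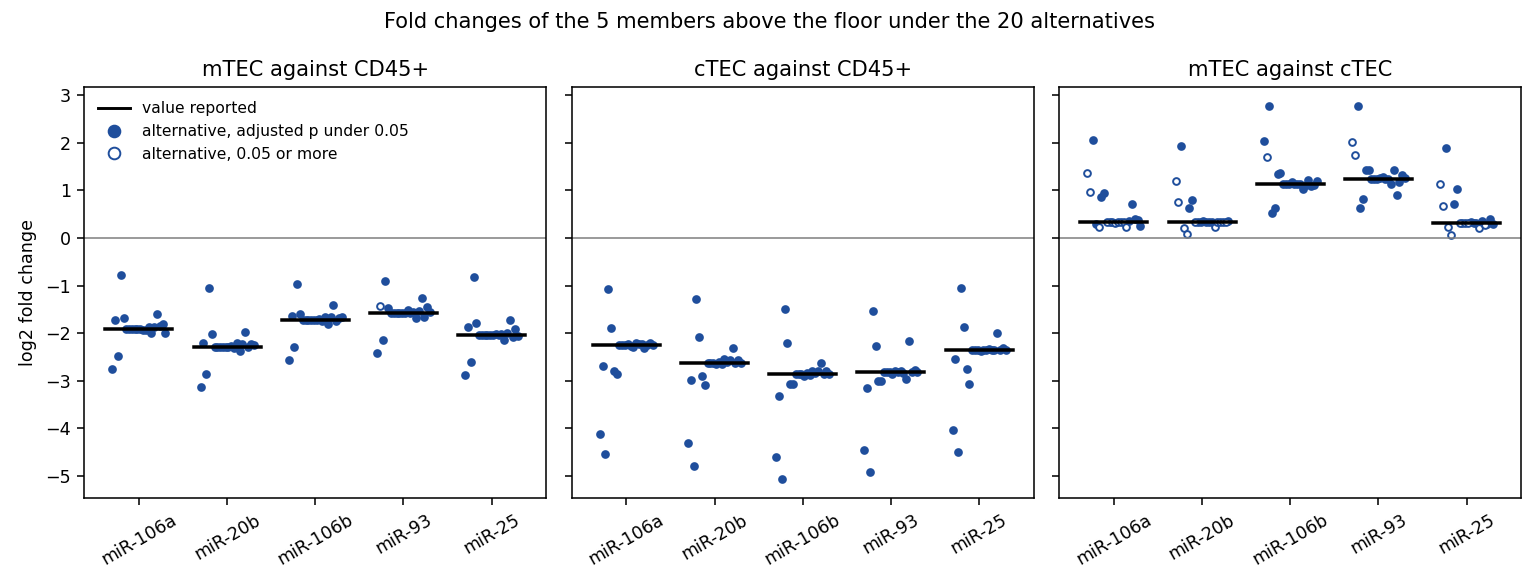
Log2 fold change of the 5 members above the floor under each of the 20 alternatives (points, open where the adjusted p was 0.05 or more) and as reported (black bars). Every point is below 0 against CD45+ cells and above 0 in mTECs against cTECs, where many points for miR-106a, miR-20b and miR-25 are open.

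The miR-17-92 cluster on chromosome 14 gives the nearest relatives for comparison, and its 6 miRNAs were read in the same fit. The probes of miR-19b and miR-92a may also report their copies in the miR-106a-363 cluster. They therefore do not stand for miR-17-92 alone, here or where miR-92a serves as a paralog. All 6 were lower in mTECs than in CD45+ cells, with a median log2 difference of -1.79, and all 6 were lower in cTECs, with a median of -2.64. In mTECs against cTECs, 3 of the 6 were called higher: miR-19b by 2.02, miR-17 by 1.38 and miR-20a by 1.16 (limma adjusted p = 0.00226, 2.24e-04 and 2.96e-04). The others had differences of 0.28 (miR-19a, adjusted p = 0.343), 0.030 (miR-18a, adjusted p = 0.977) and -0.23 (miR-92a, adjusted p = 0.571), none of which passed.

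Whether a member moved by another amount than its own paralog was tested as the member minus paralog difference within each array, in the 5 of 7 pairs above the floor on the CD45+ and mTEC arrays. This set of arrays was chosen after the data were seen. miR-20b minus miR-20a was -0.78 to -0.72 in CD45+ cells and -1.22 to -1.15 in mTECs, a shift of -0.45 with no overlap (two-sided exact permutation test, p = 0.1). miR-106a minus miR-17 was -1.20 to -1.17 in CD45+ cells and -1.42 to -1.29 in mTECs, a shift of -0.17 with no overlap (exact p = 0.1). With 3 arrays against 3 the smallest p is 0.1, so neither shift could pass 0.05. In the authors' deposited values both shifts turned to the other sign, to 0.17 for miR-20b and 0.46 for miR-106a, and quantile normalization also turned that of miR-106a (0.048).

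The 3 pairs of the miR-106b-25 cluster shifted less than the spread of the mTEC arrays. The shift was 0.025 for miR-106b minus miR-17 (exact permutation p = 1, SD of 0.197 over the mTEC arrays), 0.16 for miR-93 minus miR-17 (exact p = 0.2, SD 0.170) and 0.081 for miR-25 minus miR-92a (exact p = 1, SD 0.336). These shifts also moved with the processing: without mTEC replicate 1 they were -0.034, 0.065 and -0.11, and in the deposited values 0.27, 0.33 and 0.45. The pairs of miR-18b and miR-363 were left out of this comparison, since those members lay at the floor.

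Markers of other cell types were read on the same arrays. Of 6 hematopoietic miRNAs (miR-150, miR-155, miR-181a, miR-223 and both strands of miR-142), 5 were lower in mTECs than in CD45+ cells and 6 were lower in cTECs. Their summed signal was 24259 to 28136 in CD45+ cells, 3216 to 4619 in mTECs and 4131 to 5103 in cTECs. miR-142-3p, which marks blood-lineage cells, was 7.28% to 13.3% of its CD45+ mean on the mTEC arrays, all well above background, and miR-150, a lymphocyte miRNA, was 8.39% to 9.67%. miR-181a lay at 6.60% to 9.44%, miR-142-5p at 11.9% to 16.9% and miR-223 at 13.1% to 17.4%, the last 2 not well above background on mTEC replicate 2. miR-155, the marker not called lower in mTECs (limma adjusted p = 0.0598), lay at 44.9% to 74.9%. The 5 bright members stood at 20.5% to 33.4% of the CD45+ mean in mTECs, above miR-142-3p, miR-150 and miR-181a and below miR-155. On cTEC replicate 1 the 3 markers well above background were at 11.8% (miR-155), 15.3% (miR-150) and 27.3% (miR-181a), a range that holds the members' 11.9% to 18.3%. The other markers, miR-142-3p, miR-142-5p and miR-223, were not well above background on either cTEC array. What part RNA of CD45+ cells has in the members' epithelial signal was not tested.

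**Figure D4:**
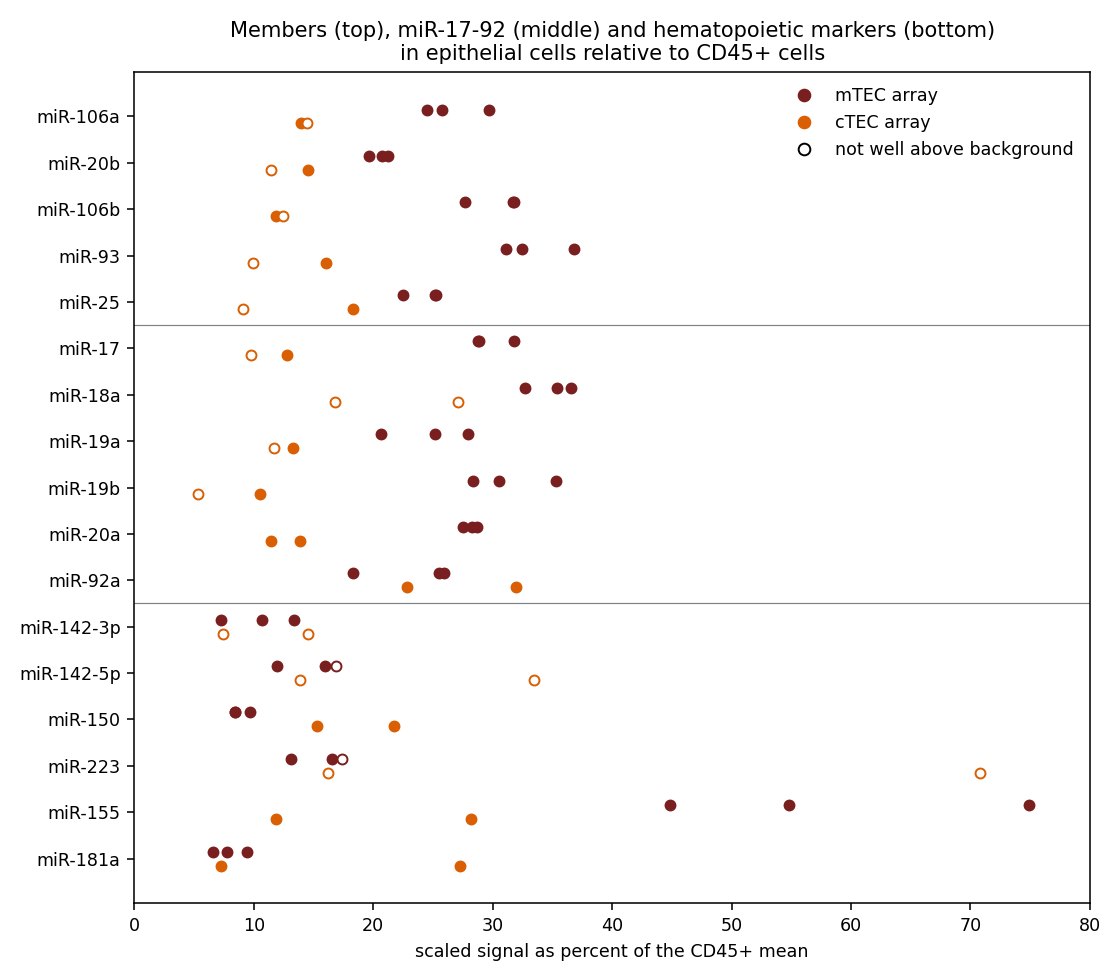
Scaled signal on each mTEC and cTEC array as percent of the mean of the CD45+ arrays, for the 5 bright members, the 6 miRNAs of miR-17-92 and 6 hematopoietic miRNAs, with open points where a miRNA was not well above background. On mTEC arrays the members run from 19.7% to 36.8%, above miR-142-3p, miR-150 and miR-181a (6.60% to 13.3%) and below miR-155 (44.9% to 74.9%).

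The epithelial labels were checked against miRNAs known from epithelia. All 7 epithelial miRNAs (miR-205, miR-203 and the 5 of the miR-200 family) were higher in mTECs than in CD45+ cells, with a summed signal of 36800 to 39058 against 623 to 703.5. In cTECs the sum was 4442 to 8620 and 1 of the 7 was called higher, while neither cTEC array measured miR-203 or miR-429 well above background. Among those not called, miR-205 had 3856 and 997 in cTECs against 88.3 to 99.6 in CD45+ cells (log2 difference 1.64, limma adjusted p = 0.0741). For miR-200b the signals were 1066 and 757 against 78.3 to 112 (0.52, limma adjusted p = 0.0576). Of 4 mesenchymal or endothelial miRNAs, 3 were tested. miR-126-3p of endothelial cells was higher in cTECs than in CD45+ cells by 1.38 on the log2 scale (limma adjusted p = 0.0335). The other tested miRNAs, miR-214 and miR-10b, lay at the floor on every array and could not be called. Their mean signals were 197 and 209 in mTECs, each well above background on 2 arrays, and 18.4 and 51.5 in CD45+ cells. Summed signals of the 4 were 1767 to 3106 in cTECs, 826 to 1019 in mTECs and 354 to 420.0 in CD45+ cells. The erythroid miR-451 and miR-144 were not tested because they were too dim. The part of these other cell types in the members' signal was not tested.

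The passenger strands of the members' hairpins, the strand usually discarded when the guide is loaded, were mostly not well above background. Of 7 passenger strands in the table, only miR-106b* was well above background anywhere, with 232, 214.5 and 178 in CD45+ cells, 97.2, -1.86 and 70.8 in mTECs and -123 and -4.68 in cTECs after background subtraction. Only mTEC replicate 1 and the 3 CD45+ arrays measured it well above background. All its values lay under the floor, so it was among the tested miRNAs counted as not different. The detection limits of both cTEC arrays lay above its CD45+ signal, so that no order against cTECs can be given. Among other mouse miRNAs with a member's seed, miR-32 and miR-367 were not well above background on any array, and miR-92b was so on mTEC replicate 1 alone (119). In the seed group AUUGCAC the bright miRNAs were therefore miR-25 and miR-92a.

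The members' profiles over the 8 arrays were compared as root mean square differences of log2 signal after centring each profile on its own mean, a description with no test. The closest members were miR-106a and miR-25, of different clusters, at 0.0993, and the farthest were miR-20b and miR-93 at 0.407. Within the miR-106b-25 cluster miR-106b and miR-93 lay at 0.143, and miR-25 lay at 0.330 and 0.371 from them. The tested miRNAs outside the 2 clusters nearest to the mean of miR-106a and miR-20b were miR-19a (0.148), miR-128 (0.161) and miR-150 (0.254). Nearest to the mean of the miR-106b-25 members were miR-20a (0.134), miR-17 (0.217) and miR-19a (0.262). Since 4 of the 5 bright members sit at or near the floor on both cTEC arrays, the cTEC part of these profiles is largely the floor.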

How the data were processed

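Total RNA was labelled with Cy3 and hybridized to 8 single-colour Agilent arrays of 1 slide. The authors deposited each array's spot intensity, before and after background subtraction (Feature Extraction 10.7.3.1 per the file headers), and a table of quantile-normalized log2 intensity (10.9 to 17.5), whose columns of their own comparisons (fold changes, ratios, p-values, log odds) were not used. limma is named in the submitters' processing notes.

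From the processed intensity, outlier spots (1.09% to 1.85%) were left out, and no spot was saturated. The 65 mouse probes that every array measured well above background gave the 75th percentile used to scale it. Spots were raised to a floor of 621.0 (log2 9.28), and log2 values averaged per probe. Tests covered the 309 miRNAs with most spots well above background on 2 or more arrays, in limma 3.58.1 in R 4.3.3 (lmFit, eBayes, 3 group means, 5 residual and 0.90 prior degrees of freedom) with Benjamini-Hochberg adjustment. The 83 that never rose above the floor counted as not different in the adjustment. That floor follows an earlier analysis that kept it with the results of several floors known. The number of arrays limits the precision. Sequences and positions are RefSeq's for GRCm38.p6, and the build of the deposited table is not given in the sources used here.

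The members, the miR-17-92 paralogs and the marker lists were chosen with earlier results of these data known. Named miRNAs were all members and paralogs, their passenger strands, miRNAs with a member's seed, the markers, and the 3 most alike for each cluster. Alternatives covered scaling, background, floor, filter, samples in the fit, blocks and leaving out each array. The 2648 probes without a mouse name were not analysed here.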

Additional observations from a re-analysis of the deposited data

How the results depend on the processing

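Under all 20 alternatives the 5 bright members stayed lower in mTECs and cTECs than in CD45+ cells, and every call but that of miR-93 in mTECs (quantile normalization) stood. The deposited table gave the smallest changes, -0.78 (miR-106a) to -1.06 (miR-20b) in mTECs. Scaling moved the median of the 65 miRNAs measured on all arrays, in cTECs against CD45+ cells from 0.47 to -1.23 without normalization and 0.98 with quantile normalization. miRNAs called in mTECs against CD45+ cells, 74 as reported, numbered 121 (deposited table), 118 (normexp, 67 higher), 140 (lowest floor, 67.0) and 66 to 84 with 1 array left out. In cTECs against CD45+ cells, 95 became 155 (quantile), 250 (normexp, 197 higher), 224 (lowest floor) and 82 to 168 with 1 array left out. In mTECs against cTECs, 70 became 39 (percentile over all probes), 201 (normexp, 45 higher), 129 (lowest floor) and 57 to 147 with 1 array left out, both maxima without cTEC replicate 1. The cause was not tested. Of the 5 members called higher in mTECs than in cTECs, 1 was called with the percentile over all probes, 0 with quantile normalization in limma (2 at an unadjusted p under 0.05), 3 with the deposited table, 2 with normexp, 2 with no filter, 3 with only the 2 groups compared, 3 with the replicate block, and 2 to 5 with 1 array left out. The members' median in that comparison, 0.34 as reported, was larger with the percentile over all probes (1.19) and quantile normalization (0.77), where fewer were called. It was smaller with the deposited table (0.23) and normexp (0.079). With normexp 1 member, miR-18b (1.37), was higher in cTECs than in CD45+ cells, whereas quantile normalization called it lower (-0.25), as it did miR-363 (-0.53, and -0.11 in the deposited table). With normexp 2 were lower in mTECs than in cTECs, as 1 was with the lowest floor (miR-363, -1.20). miR-363 was called lower in mTECs than in CD45+ cells in 3 alternatives and miR-18b in 2. Whether replicate numbers pair the samples was not settled by correlations of deviations (-0.22 to 0.28), with 2 or 3 arrays per group. The replicate block changed no other member call. With the slide row as a block 4 were called, and within each row the differences kept their signs. The planned test against paralogs over all 5 epithelial arrays had no pair above the floor. With the lower floors 4 and 5 pairs shifted by -0.42 to 0.17 (exact permutation p of 0.107 to 0.929). In the deposited values 4 of the 5 bright pairs had the smallest possible exact permutation p, 0.0357, not adjusted for the number of pairs. With normexp the 5 bright pairs had p of 0.0714 to 0.786. For miR-18b and miR-363, near background in epithelial cells, such a shift shows the paralog's fall and was not read. Over CD45+ and mTEC arrays, miR-106a minus miR-17 turned to 0.0482 (quantile) and 0.458 (deposited), and miR-20b minus miR-20a to 0.166 (deposited).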
